A study of Mus musculus with 10 samples.

Results

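The brush-border peptidases are enzymes on the apical membrane of enterocytes that cut peptides in the gut lumen. Taken here were the 9 rows of the gene table, out of 45707, whose symbol is Anpep, Enpep, Dpp4, Ace, Mep1a, Mep1b, Naaladl1, Xpnpep2 or Ggt1, and all 9 were found. The table holds RNA-seq of jejunum from 10 male littermate mice, 5 Vil-Cre and 5 Vil-Cre:NDI1, with 1 library per mouse. All 10 mice carry Cre under the promoter of Vil1, which encodes villin and is active in the intestinal epithelium. The Vil-Cre:NDI1 mice also carry, at the ROSA26 locus, the yeast NADH dehydrogenase NDI1 behind a lox-stop-lox cassette, and so are meant to express it in the epithelium only. The mice were 8 to 12 weeks old, were fasted for 16 to 18 h, received water by gavage and gave flushed whole jejunum 1 h later, so the RNA is that of the gut wall and not of sorted enterocytes. The comparison asks whether NDI1, an enzyme that can take over NADH oxidation from mitochondrial complex I, goes along with altered transcript levels in that tissue.

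Dietary protein is broken down to oligopeptides in the lumen by pancreatic proteases, and the peptidases of the brush border then trim these to amino acids and short peptides that enterocytes take up. Aminopeptidases remove residues from the amino end, carboxypeptidases from the carboxyl end, and the meprins cut inside the chain. Several of these enzymes also inactivate peptide hormones, and their amounts are known to differ along the length of the small intestine.

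Libraries held 10145705 to 12371530 reads on genes. Values are normalized counts, that is, reads divided by 1 size factor per library. NDI1, the label check, was listed at 0 in 4 Vil-Cre libraries and at 1 read in Vil-Cre 3, and at 982 to 2575 normalized counts in the 5 Vil-Cre:NDI1 libraries. Vil1 stood at 40711 ± 4805 in Vil-Cre mice and 43721 ± 3185 in Vil-Cre:NDI1 mice (SD, n = 5 each), and was thus abundant in every library. Markers of other cells were also present: the summed level of 6 goblet cell genes ranged from 54912 to 93248 normalized counts and that of 6 smooth muscle genes from 11841 to 25195.

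Genes that mark position along the small intestine divided the 10 mice in a way that does not follow genotype. Slc10a2, the ileal bile acid transporter, stood at 199 to 561 normalized counts in Vil-Cre 1, 2 and 5 and Vil-Cre:NDI1 4 and 5, and at 2.94 to 21.0 in the other 5 mice. Fabp6, the ileal bile acid-binding protein, was at 36.4 to 1477 in the former 5 and at 0 to 5.01 in the latter. Onecut2, a transcription factor of the proximal small intestine, ran the other way, at 20.6 to 81.0 against 341 to 744. Gata4, a factor of duodenum and jejunum, was at 703 to 1225 against 1273 to 1443, whereas Cybrd1, a duodenal iron reductase, was low throughout and overlapped (22.4 to 37.2 against 13.7 to 25.2). Mice in which Slc10a2 exceeded Onecut2 are called Slc10a2-high here. They comprise 3 Vil-Cre and 2 Vil-Cre:NDI1 mice, a division made from these libraries and not given by any label.

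Transcript levels of the peptidases did not pass the test between genotypes. Of the 9 genes, 0 had an adjusted p under 0.05 (limma on log2(normalized count + 1), Benjamini-Hochberg over 14301 genes), where 0.00699% of all tested genes did, a single gene that is NDI1 itself. The log2 fold change was positive for 6 of the 9 against 51.2% of all genes, with a median of 0.16 against 0.0052 for all genes. An unadjusted p under 0.05 was reached by 1 of the 9, Ggt1, where 4.24% of all tested genes reached it. The 2 genotypes overlapped in every one of the 9 genes, and 0.699% of all tested genes had groups that did not overlap. The 95% confidence interval lay within a 2-fold change in either direction for 8 of the 9, Mep1a being the exception, and for 79.6% of all genes.

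**Figure D1:**
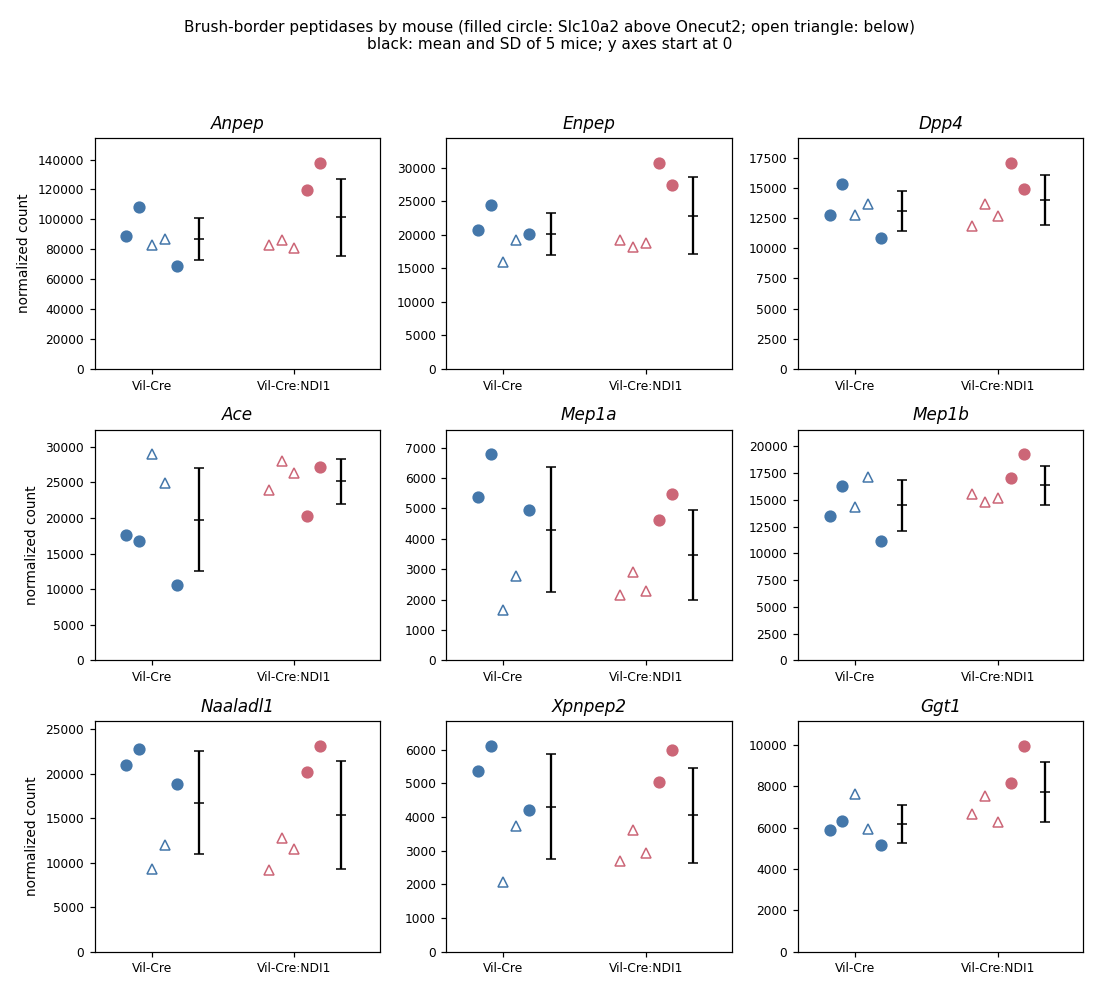
Normalized counts of the 9 brush-border peptidases in each mouse, with Vil-Cre in blue and Vil-Cre:NDI1 in red, and the mean and SD of 5 mice in black. Filled circles are the 5 mice with Slc10a2 above Onecut2 and open triangles the other 5; in Mep1a, Naaladl1, Xpnpep2 and Enpep every circle lies above every triangle, while the genotypes overlap in all 9 panels.

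Anpep encodes aminopeptidase N (CD13), which removes neutral residues from the amino end of peptides. Its gene lies at chr7:79821803-79861059 on the minus strand (GRCm38), and by mean normalized count it ranked 4 among all genes in the table. Normalized counts were 88643, 108250, 82948, 86695 and 68999 in Vil-Cre mice 1 to 5 and 82826, 85970, 81141, 119660 and 137782 in Vil-Cre:NDI1 mice 1 to 5. Vil-Cre:NDI1 4 and 5 exceeded every Vil-Cre mouse, and the other 3 Vil-Cre:NDI1 mice sat inside the Vil-Cre range. The means were 87107 ± 14096 and 101476 ± 25742, a log2 fold change of 0.20 ± 0.19 (SE; 95% CI −0.22 to 0.62; limma adjusted p = 0.998; exact permutation p = 0.325, two-sided). Without Vil-Cre:NDI1 5 it was 0.081. Reads of Anpep made up 44.6% to 50.8% of the reads of the 9 genes in each mouse.

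Enpep encodes aminopeptidase A, which removes acidic residues and converts angiotensin II to angiotensin III (chr3:129269175-129332720, minus strand). Its normalized counts were 20736, 24541, 15986, 19283 and 20124 in the Vil-Cre mice and 19206, 18248, 18811, 30766 and 27414 in the Vil-Cre:NDI1 mice. The same 2 mice as for Anpep, Vil-Cre:NDI1 4 and 5, were the highest of the 10. The log2 fold change was 0.16 ± 0.17 (SE; 95% CI −0.22 to 0.54; exact permutation p = 0.397), and without Vil-Cre:NDI1 4 it was 0.048. Dpp4 encodes dipeptidyl peptidase 4, which removes dipeptides that end in proline or alanine and inactivates the incretin hormones (chr2:62330073-62412231, minus strand). It varied least of the 9, with 10833 to 15343 (median 12752) in Vil-Cre mice and 11833 to 17086 (median 13636) in Vil-Cre:NDI1 mice, and a log2 fold change of 0.10 ± 0.12 (SE; 95% CI −0.17 to 0.37; exact permutation p = 0.460), or 0.024 without Vil-Cre:NDI1 4.

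Ace encodes angiotensin-converting enzyme, a dipeptidyl carboxypeptidase that takes dipeptides off the carboxyl end (chr11:105967945-105989964, plus strand). Normalized counts were 17646, 16720, 28958, 24986 and 10521 in Vil-Cre mice and 23917, 27984, 26356, 20286 and 27178 in Vil-Cre:NDI1 mice. The Vil-Cre mice fell apart into 3 low values (mice 1, 2 and 5) and 2 high ones (mice 3 and 4), the latter within or above the Vil-Cre:NDI1 range. The means were 19766 ± 7263 and 25144 ± 3113, a log2 fold change of 0.42 ± 0.24 (SE; 95% CI −0.10 to 0.94; limma adjusted p = 0.998; exact permutation p = 0.135). Fits on recovered reads were also run without Vil-Cre 3 and 4, since whole reads could not be checked independently in them. This takes out the 2 Vil-Cre mice with high Ace and leaves only Slc10a2-high mice in the Vil-Cre group. There DESeq2 gave a log2 fold change of 0.75 with an adjusted p of 0.00746 and edgeR an adjusted p of 0.401. On all 10 mice neither tool called Ace. When 1 mouse was left out, the limma log2 fold change ranged from 0.22 without Vil-Cre 5 to 0.58 without Vil-Cre 3.

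Ggt1 encodes gamma-glutamyltransferase 1, which splits glutathione and other gamma-glutamyl peptides at the cell surface (chr10:75561604-75586200, plus strand). Its normalized counts were 5864, 6320, 7614, 5908 and 5161 in Vil-Cre mice and 6633, 7544, 6275, 8147 and 9956 in Vil-Cre:NDI1 mice. Only Vil-Cre:NDI1 4 and 5 exceeded the highest Vil-Cre mouse. The means were 6173 ± 907 and 7711 ± 1456, a log2 fold change of 0.31 ± 0.14 (SE; 95% CI 0.0084 to 0.62; unadjusted limma p = 0.0449, adjusted p = 0.998; exact permutation p = 0.0714). Without Vil-Cre:NDI1 5 it was 0.22.

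The meprins form a pair of metalloproteases. Mep1b encodes meprin beta, the membrane-bound subunit (chr18:21061923-21100199, plus strand), and Mep1a encodes meprin alpha, which is held at the membrane through meprin beta (chr17:43474324-43502812, minus strand). Mep1b stood at 13479, 16310, 14336, 17111 and 11171 in Vil-Cre mice and at 15579, 14829, 15140, 17010 and 19253 in Vil-Cre:NDI1 mice, with a log2 fold change of 0.19 ± 0.13 (SE; 95% CI −0.097 to 0.47; exact permutation p = 0.190), or 0.096 without Vil-Cre 5. Mep1a stood at 5369, 6784, 1645, 2775 and 4951 in Vil-Cre mice and at 2141, 2916, 2280, 4606 and 5468 in Vil-Cre:NDI1 mice. The subunits therefore differed in spread: Mep1a reached a coefficient of variation of 45.0% over the 10 mice, above 85.2% of tested genes, and Mep1b 14.4%, below the median gene at 20.4%. The ratio of Mep1a to Mep1b normalized counts ran from 0.115 in Vil-Cre 3 to 0.443 in Vil-Cre 5, a 3.86-fold range. The log2 fold change of Mep1a between genotypes was −0.24 ± 0.39 (SE; 95% CI −1.09 to 0.61; exact permutation p = 0.619), and it ranged from −0.54 without Vil-Cre 3 to −0.034 without Vil-Cre 2.

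Naaladl1 encodes a metallopeptidase related to glutamate carboxypeptidase II and first described as an ileal brush-border protein (chr19:6105782-6115792, plus strand). Normalized counts were 20997, 22759, 9287, 12041 and 18831 in Vil-Cre mice and 9160, 12796, 11519, 20254 and 23177 in Vil-Cre:NDI1 mice. Xpnpep2 encodes membrane-bound aminopeptidase P, which removes an amino-terminal residue that precedes proline (chrX:48108725-48136981, plus strand), and stood at 5377, 6117, 2071, 3743 and 4209 in Vil-Cre mice and at 2694, 3602, 2925, 5033 and 5990 in Vil-Cre:NDI1 mice. In both genes the 5 highest mice were Vil-Cre 1, 2 and 5 and Vil-Cre:NDI1 4 and 5, the same 5 that were highest for Mep1a. The log2 fold change between genotypes was −0.13 ± 0.31 for Naaladl1 (SE; 95% CI −0.80 to 0.54; exact permutation p = 0.770). For Xpnpep2 it was −0.065 ± 0.30 (SE; 95% CI −0.72 to 0.59; exact permutation p = 0.849), and it turned positive when any 1 of 4 mice was left out.

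Those 5 mice are the Slc10a2-high mice. Mep1a was at 4606 to 6784 normalized counts in them and at 1645 to 2916 in the other 5. Naaladl1 was at 18831 to 23177 against 9160 to 12796. Xpnpep2 was at 4209 to 6117 against 2071 to 3743, and Enpep was at 20124 to 30766 against 15986 to 19283. In 4 of the 9 peptidases, then, the ranges of the 2 sets of mice did not overlap, whereas 4.91% of all tested genes showed such a gap. Anpep, Dpp4, Mep1b and Ggt1 overlapped, each with a range in the Slc10a2-high mice that enclosed that of the others. Ace was the one peptidase that tended the other way, at 10521 to 27178 in the Slc10a2-high mice and 23917 to 28958 in the others, with an overlap made by Vil-Cre:NDI1 5. The ratio of Naaladl1 to Ace ran from 0.853 to 1.79 in the Slc10a2-high mice and from 0.321 to 0.482 in the others, a 5.58-fold range in all. That of Mep1a to Mep1b was likewise separate, at 0.271 to 0.443 in the Slc10a2-high mice and 0.115 to 0.197 in the others. The part of position along the gut in these differences was not tested, since no label gives the place at which each jejunum was cut.

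**Figure D2:**
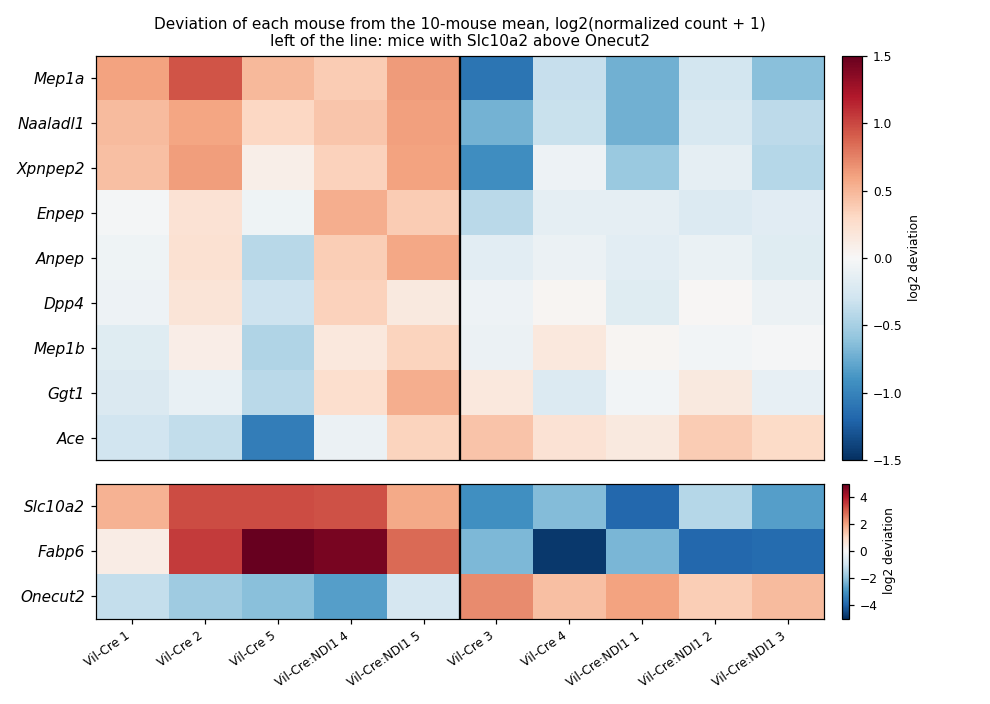
Log2 deviation of each mouse from the mean of 10 mice for the 9 peptidases (upper panel) and for 3 genes that mark position along the small intestine (lower panel, with a wider colour scale). Mice left of the black line have Slc10a2 above Onecut2; Mep1a, Naaladl1 and Xpnpep2 are above their means in all 5 of them and below in all 5 others.

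Pearson's r of the log2 values was also read within each set of 5 mice, with genotypes pooled. It is a description with no test, since the points share each library's scaling and cell makeup. Over the Slc10a2-high mice r was 0.70 for Mep1a with Naaladl1, 0.71 for Mep1a with Xpnpep2 and 0.98 for Naaladl1 with Xpnpep2. Over the other 5 it was 0.87, 0.99 and 0.87. Such values were not particular to these 3 genes, which were picked for their division of the mice: in the Slc10a2-high mice Naaladl1 gave an r of 0.80 with Mep1b, 0.77 with Anpep and 0.76 with Ace, and Xpnpep2 gave 0.79 with Mep1b. No pooled correlation is given for a pair that includes Mep1a, Naaladl1, Xpnpep2 or Enpep, whose values fall into 2 separate ranges. Mep1b, the partner subunit of Mep1a, had an r with Mep1a of 0.23 in the Slc10a2-high mice and 0.56 in the others.

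Promoters are shown for 3 of the 4 peptidases whose ranges divided the mice, and for Ace, which tended the other way. They are RefSeq sequences on GRCm38.p6, taken from the bases before the annotated start and cut where the annotated gene begins, written 5′ to 3′ on the strand of the gene. Capitals mark a match to any of 4 short motifs, searched on both strands.
Mep1a (chr17:43502813-43503023, minus strand): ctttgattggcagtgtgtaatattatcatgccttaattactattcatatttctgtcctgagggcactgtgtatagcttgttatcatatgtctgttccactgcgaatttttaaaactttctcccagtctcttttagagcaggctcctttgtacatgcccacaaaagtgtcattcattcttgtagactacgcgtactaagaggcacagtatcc
Xpnpep2 (chrX:48108475-48108724, plus strand): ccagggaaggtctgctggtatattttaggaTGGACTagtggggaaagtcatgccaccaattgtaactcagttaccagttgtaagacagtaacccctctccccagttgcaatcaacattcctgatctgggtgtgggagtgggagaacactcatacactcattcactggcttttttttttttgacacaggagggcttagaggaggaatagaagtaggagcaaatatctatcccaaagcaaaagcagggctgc
Enpep (chr3:129332750-129332999, minus strand): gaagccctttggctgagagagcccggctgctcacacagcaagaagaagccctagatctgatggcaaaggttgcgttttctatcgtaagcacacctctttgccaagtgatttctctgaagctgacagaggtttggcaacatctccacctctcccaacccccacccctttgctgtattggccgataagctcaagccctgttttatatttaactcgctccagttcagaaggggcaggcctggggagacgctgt
Ace (chr11:105967698-105967944, plus strand): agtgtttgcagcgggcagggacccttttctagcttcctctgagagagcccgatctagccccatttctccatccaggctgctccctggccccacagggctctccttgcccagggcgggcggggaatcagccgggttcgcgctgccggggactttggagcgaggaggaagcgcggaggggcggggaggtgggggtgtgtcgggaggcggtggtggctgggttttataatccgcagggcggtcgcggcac
The motifs were GTTAAT for an HNF1 half-site, TTTATG for CDX, AGATAA for GATA and AGTCCA for an HNF4 half-site. In the 32851 promoters of the RefSeq table they occurred within the 250 bases before the start in 6.43%, 10.8%, 9.99% and 11.5%, respectively. Of the 4 promoters printed, that of Xpnpep2 held 1 match, to the HNF4 half-site as its reverse complement TGGACT, and these letters were not in the other 3 windows. Naaladl1 and Mep1b had no entry in that table.

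Fitting genotype together with the division by Slc10a2 and Onecut2, a fit chosen after the values were seen, narrowed the intervals most for Mep1a, Naaladl1, Xpnpep2 and Enpep. These genes had separate ranges in that same division, so the narrowing follows from the choice of term and tests nothing. The SE of Enpep was 0.173 without the term and 0.106 with it. It also fell for Ace (0.237 and 0.190), Anpep (0.193 and 0.165) and Dpp4 (0.124 and 0.119), whose ranges overlapped. The SE did not fall for Mep1b (0.129 without the term and 0.131 with it) or Ggt1 (0.139 and 0.141). The log2 fold change between genotypes became 0.0053 for Mep1a (95% CI −0.36 to 0.37), 0.061 for Naaladl1 (95% CI −0.20 to 0.32) and 0.11 for Xpnpep2 (95% CI −0.26 to 0.48), all 3 now positive. In that fit 9 of 9 peptidases had a positive log2 fold change against 51.3% of all genes, 2 of 9 (Enpep and Ggt1) had an unadjusted p under 0.05 against 5.39%, and 0 of 9 had an adjusted p under 0.05 against 0.014%. Enpep stood at 0.26 (95% CI 0.023 to 0.49; adjusted p = 0.914) and Ggt1 at 0.33 (95% CI 0.019 to 0.64; adjusted p = 0.914). Enpep is among the genes that the division separates, so its interval and unadjusted p here rest on the choice of term and test nothing. Without the term its interval was −0.22 to 0.54. Ace stood at 0.32 (95% CI −0.10 to 0.74; adjusted p = 0.929).

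**Figure D3:**
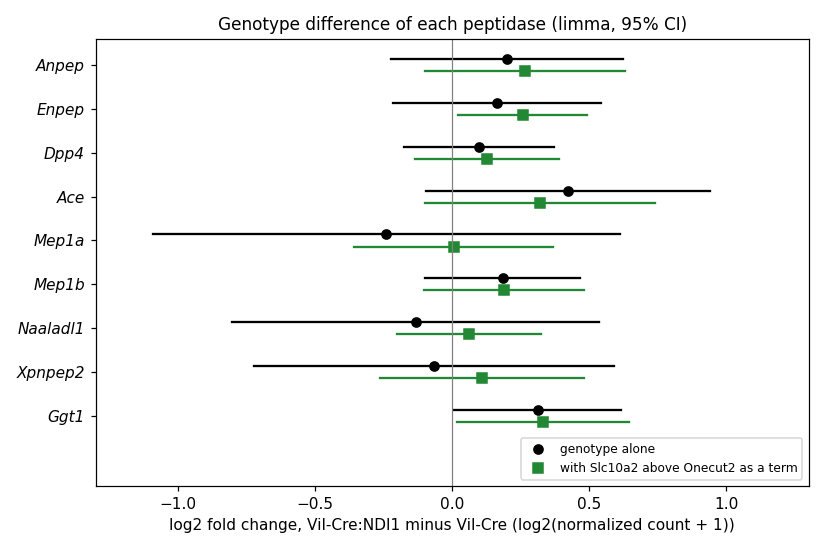
Log2 fold change of each peptidase, Vil-Cre:NDI1 minus Vil-Cre, with its 95% confidence interval from limma, for genotype alone (black circles) and with the division of the mice by Slc10a2 and Onecut2 as a second term (green squares). The intervals of Mep1a, Naaladl1, Xpnpep2 and Enpep narrow most with the term, which follows from their separate ranges in that division. In neither fit does any of the 9 have an adjusted p under 0.05.

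Markers of enterocytes were read beside the peptidases. All 13 of a list of enterocyte genes (Vil1, Fabp1, Fabp2, Apoa1, Apoa4, Apob, Alpi, Sis, Lct, Treh, Cdhr2, Cdhr5 and Myo1a) had a positive log2 fold change, 0 of 13 passed the test, and their median of 0.16 equalled that of the peptidases to 2 decimals. Their summed level was 376838 to 635266 normalized counts in Vil-Cre mice and 512020 to 698798 in Vil-Cre:NDI1 mice. Over single mice the lists often parted: the median deviation from the mean over the 10 mice had the same sign for peptidases and markers in 3 mice and opposite signs in 7. The marker median also went largely with the division by Slc10a2 and Onecut2. It was 0.026 to 0.12 in the mice that are not Slc10a2-high. In the Slc10a2-high mice it was −0.040, −0.13, −0.49 and −0.18 in Vil-Cre 1, 2 and 5 and Vil-Cre:NDI1 4. In Vil-Cre:NDI1 5 it was 0.27. The part of position in this parting was not tested. In Vil-Cre 5, which had the lowest Anpep, Dpp4, Ace, Mep1b and Ggt1, 3 of 9 peptidases and 0 of 13 markers lay above their means, and in Vil-Cre:NDI1 5 all 9 peptidases and 12 of 13 markers did. These 2 libraries also had the lowest and the highest total of normalized counts of the 10, 1.02e+07 and 1.21e+07. In Vil-Cre:NDI1 4, the mouse with the next highest summed peptidases, 8 of 9 peptidases but 4 of 13 markers lay above, and in Vil-Cre 2 it was 7 of 9 and 5 of 13. In Vil-Cre 4 and Vil-Cre:NDI1 2 it was 3 of 9 and 10 of 13 each. The part of enterocyte content in the differences between genotypes was not tested, and in bulk tissue fewer enterocytes and less RNA per enterocyte cannot be told apart. Hepatocyte markers were present at a low level, with summed normalized counts of 77.9 to 1454 in Vil-Cre mice against 60.8 to 277 in Vil-Cre:NDI1 mice (0 of 5 tested genes passed, all 5 with a negative log2 fold change).

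Anpep was also compared with other peptidases of the surface by covariation. With Dpp4 it gave a Pearson's r of 0.865 and a Spearman's rho of 0.915 over 10 mice (permutation p = 0.00101 and 0.00057, adjusted over 36 pairs 0.00909 and 0.00513). This was not particular to the pair: Dpp4 ranked 101 of 14300 genes by r with Anpep, and Anpep ranked 12 of 14300 by r with Dpp4. Over the same mice Anpep gave an r of 0.816 with Mep1b, 0.771 with Ggt1 and 0.265 with Ace. The points share library scaling and cell makeup, and with libraries at equal totals the r with Dpp4 was 0.774. The relation of Anpep with Dpp4 held without Vil-Cre:NDI1 4 and 5, the 2 mice farthest from the median (r = 0.922), and within the sets of 5 mice (r = 0.881 in the Slc10a2-high mice and 0.768 in the others). Anpep and Enpep, aminopeptidases of one family, had an r of 0.872 in the Slc10a2-high mice but 0.191 in the others, each over 5 mice and with no test. Enpep and Ggt1 had an r of 0.851 in the Slc10a2-high mice and −0.759 in the others. Genotypes were pooled within each set. Among the Slc10a2-high mice, Vil-Cre:NDI1 4 and 5 exceeded all Vil-Cre mice in Anpep, Enpep and Ggt1. The r values of these genes there therefore also carry the difference between genotypes.

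Between genes, levels were compared as normalized counts per kilobase of merged exons. Anpep stood far above the rest, at 21066 ± 3409 per kilobase in Vil-Cre mice and 24541 ± 6225 in Vil-Cre:NDI1 mice, and exceeded the next gene in 10 of 10 mice. Naaladl1 (6737 ± 2344 and 6175 ± 2416), Mep1b (5517 ± 898 and 6233 ± 693), Enpep (4278 ± 652 and 4864 ± 1231) and Ace (3739 ± 1374 and 4756 ± 589) followed. The order within that group was not fixed, since Naaladl1 exceeded Mep1b in 5 of 10 mice and Enpep exceeded Ace in 5 of 10. In both comparisons these 5 were the Slc10a2-high mice. Dpp4 and Ggt1 were next, at 2069 ± 260 and 1810 ± 266 in Vil-Cre mice, and Dpp4 exceeded Ggt1 in 6 of 10 mice. Mep1a (1247 ± 599 and 1009 ± 429) and Xpnpep2 (882 ± 320 and 830 ± 291) were lowest, with Mep1a above Xpnpep2 in 10 of 10 mice. With the longest transcript as the length, Naaladl1 changed places with Mep1b and Dpp4 with Ggt1.

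**Figure D4:**
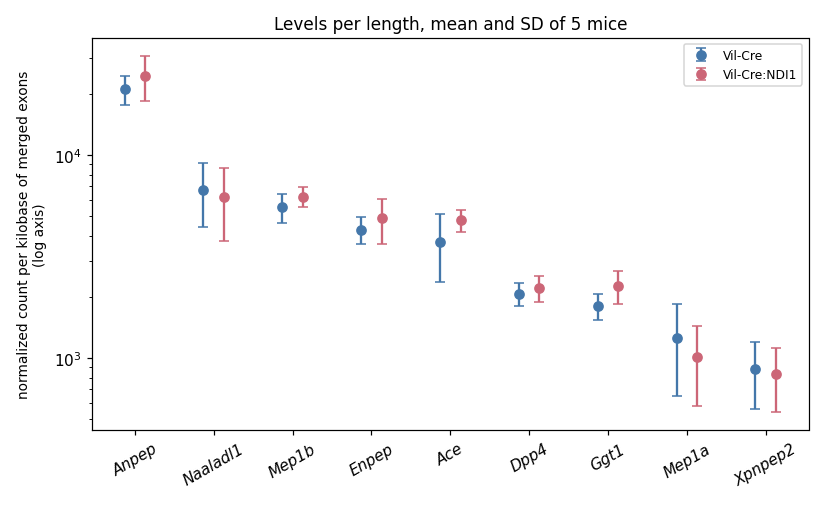
Normalized count per kilobase of merged exons for the 9 peptidases on a log axis, mean and SD of 5 mice per genotype. Anpep lies above all others, and the genotype bars of each gene overlap.

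In all, the 9 genes took 1.71 ± 0.19% of the reads in Vil-Cre mice and 1.85 ± 0.33% in Vil-Cre:NDI1 mice (SD, n = 5 each), with a counting interval (Wilson, 95%) of 1.52% to 1.53% in the lowest mouse and 2.23% to 2.25% in the highest. The summed level was 186130 ± 24925 and 210522 ± 43861 normalized counts, a log2 ratio of 0.18 within the spread between mice. Vil-Cre:NDI1 4 and 5 had the highest sums of the 10, at 242847 and 271117, and the other 3 Vil-Cre:NDI1 mice, at 173990 to 187525, lay inside the Vil-Cre range of 154801 to 223144.

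Among 17 other cell-surface peptidases 12 were tested and 0 passed in either direction, with 8 positive log2 fold changes and a median of 0.047. Mme, neprilysin, resembled Ace: it stood at 5918, 4974, 10503, 8017 and 3257 in Vil-Cre mice and at 10010, 8260, 8519, 9261 and 10060 in Vil-Cre:NDI1 mice, low in the same 3 Vil-Cre mice. Its log2 fold change was 0.60 ± 0.25 (SE; unadjusted limma p = 0.0363, adjusted p = 0.998; exact permutation p = 0.0873). Dpep1, the renal and intestinal membrane dipeptidase, stood at 4919 ± 1160 and 5041 ± 1031 normalized counts (log2 fold change 0.045 ± 0.18 SE). Dpep2, another dipeptidase, was near the detection limit, at 6.79 ± 3.08 and 12.1 ± 3.18 normalized counts (limma unadjusted p = 0.0416, adjusted p = 0.998).

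Inside the cell, 25 cytosolic and lysosomal peptidases were tested and 0 passed, with 13 positive and 12 negative log2 fold changes and a median of 0.011. Cndp2, a cytosolic dipeptidase, was the most abundant (11932 ± 1385 in Vil-Cre mice and 13167 ± 2556 in Vil-Cre:NDI1 mice), followed by Lap3, leucine aminopeptidase (8028 ± 2056 and 10282 ± 2007; adjusted p = 0.998 in limma). Blmh, bleomycin hydrolase, had the smallest unadjusted p, 0.0404, at 597 ± 114 and 461 ± 86.4 (log2 fold change −0.37 ± 0.16 SE). Of 8 carriers for peptides and amino acids 7 were tested and 0 passed, with 6 positive log2 fold changes and a median of 0.17. Slc15a1, the proton-coupled peptide transporter PEPT1, stood at 14132 ± 2606 and 18076 ± 4790 normalized counts. Slc6a19, the neutral amino acid transporter B0AT1, stood at 14596 ± 1842 and 16342 ± 1537, and Slc36a1, a proton-coupled amino acid transporter, at 2343 ± 458 and 3061 ± 884. Vil-Cre:NDI1 5 had the highest value of the 10 mice for all 3 carriers.

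The genes outside the list whose log2 values were closest to the mean z-score of the 9 peptidases over the 10 mice were Bach1, a transcription repressor of haem metabolism (r = 0.971), Ipmk, an inositol phosphate kinase (r = 0.971), and Clca4b (r = 0.970). All 3 overlapped between genotypes, with 2047 ± 415 and 2476 ± 667 normalized counts for Bach1. They were picked for the highest r among all tested genes, so the height of these r values follows from the choice. The mean z-score also joins peptidases with separate ranges in the division by Slc10a2 and Onecut2 and Ace, which tended the other way.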

How the data were processed

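Jejunum RNA of 10 mice (5 Vil-Cre, 5 Vil-Cre:NDI1; groups from the labels) was sequenced single-end. The authors ran nf-core/rnaseq (trimGalore!, STAR against GRCm38 with NDI1 added, Salmon) and DESeq2 with a local dispersion fit. The annotation release and strand setting are not given in the sources used here. The deposited values are a signal per gene, reads divided by 1 size factor per library (normalized counts), for 45707 rows; genes that overlap Dpp4, Ace and Mep1b on the other strand held at most 51.6. Values were whole multiples of 1 read (tolerance 0.1) in 100% of cases, checked independently in 8 of 10 libraries; recovered totals were 10145705 to 12371530 reads.

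Genes with at least 10 normalized counts in at least 5 libraries (14301) were tested with limma 3.58.1 (R 4.3.3; trend) on log2(value + 1), two-sided, Benjamini-Hochberg over all, threshold 0.05. Single genes also had an exact permutation test (smallest p 0.00794), and pairs a permutation test with 100000 resamples. DESeq2 1.42.0 and edgeR 4.0.16 on the recovered reads, other pseudocounts (0.1 and 8), filters, scalings, a replicate block and leaving out each mouse were alternatives. The fit with Slc10a2 above Onecut2 as a term, and the fits on 8 libraries, were added after the data were seen. Tests were checked on simulated data. Gene positions are from GENCODE M21. Intervals on read shares cover counting error only.

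The members and lists were chosen with earlier results of these data known. One gene of the surface peptidase list is not reported here. Named were the 9 peptidases, in each of 3 related lists the 2 genes with the highest mean and the 2 with the smallest p, the 3 genes closest to the mean z-score, and Vil1 and NDI1; position and cell markers were named as whole lists. Crypt, goblet, Paneth, B and plasma, T, smooth muscle, adipocyte and endothelial marker lists had median log2 fold changes from −0.25 to 0.065, with 0 genes passing; 8 enterocyte transcription factors had a median of 0.059, also with 0.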

Additional observations from a re-analysis of the deposited data

Results flagged for a closer look

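In 48 groups of 5 mice (each named gene and the summed level, per genotype), a gap test (Dixon's, 95%) marked 3 values as far from their group, where chance marks about 1 group in 20, or 2.4 here. None of the 3 belongs to the 9 brush-border peptidases or to their summed level.

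Vil1 stood at 49249 normalized counts in Vil-Cre:NDI1 5, against 41252 to 43428 in the rest of its group. Dpep2 stood at 17.6 in Vil-Cre:NDI1 4, against 9.80 to 11.8. NDI1 stood at 1.00, a single read, in Vil-Cre 3, and at 0 in the other 4 Vil-Cre mice.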

How the results depend on the processing

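Of 207 fitted differences of a peptidase under an alternative, 198 kept their direction and their side of the threshold, 1 passed it (Ace, 0.75 in DESeq2 on 8 libraries) and 8 changed sign. The other pseudocounts and filters, the fit without a variance trend and the replicate block leave these fold changes almost unaltered by construction. Under those settings the direction could not change, so the count of 198 overstates what was tried. All 8 sign changes came from leaving out 1 mouse or from the Slc10a2 and Onecut2 term. Xpnpep2, which ranged from −0.31 to 0.084 when 1 mouse was left out, became 0.038 without Vil-Cre 1, 0.084 without Vil-Cre 2, 0.064 without Vil-Cre:NDI1 1 and 0.034 without Vil-Cre:NDI1 3, and Naaladl1, which ranged from −0.33 to 0.031, was positive without Vil-Cre:NDI1 1. With Slc10a2 above Onecut2 as a term, Mep1a became 0.0053, Naaladl1 0.061 and Xpnpep2 0.11. The number of peptidases called was 0 in the reported fit and in every alternative on all 10 or on 9 mice, and 1 in DESeq2 on 8 libraries (0 in edgeR on the same). The number of genes called in the whole table was 1 as reported, 2 with a minimum of 50, 2 with the Slc10a2 and Onecut2 term, 31 in DESeq2 and 276 in DESeq2 on 8 libraries, and 0 to 1 when 1 mouse was left out. Leaving out a Vil-Cre:NDI1 mouse takes NDI1 itself out of the test, since only 4 libraries then reach the minimum of 10. The cause of the other moves was not tested. The log2 ratio of the summed level was 0.11 with equal totals, 0.066 after quantile normalization and 0.070 to 0.25 when 1 mouse was left out.

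Replicate numbers did not pair the mice: the correlations of deviations of same-numbered mice were −0.12, 0.0024, 0.14, −0.11 and −0.035, and 1 of 5 Vil-Cre mice matched its own number best. With a replicate block 1 gene and 0 peptidases were called, as without it. With 5 mice per group, differences of Mep1a, Naaladl1 and Xpnpep2 smaller than their intervals are not detectable here.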
